A study of Homo sapiens with 42 samples.

Results

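The genes described here carry sulfur from methionine to glutathione. They are MAT2A and AHCY of the methionine cycle, CBS and CTH of transsulfuration, GCLC, GCLM and GSS, which build glutathione, and GSR, GPX2 and GPX4, which recycle or spend it. The 10 genes were named by pathway, and a gene was measured where a row of the deposited array table carried its symbol alone. This held for 9 of the 10 among 18404 genes in all. The only row with the symbol CBS also named a second locus, LOC102724560, so no value is given for CBS. Expression was profiled in 2 human lung tumour lines that received 2 Gy of gamma radiation while growing exponentially: H460, from a large-cell carcinoma and called radiosensitive by the study, and H1299, from a non-small cell carcinoma and called radioresistant. Each line had 6 arrays at 0 h, labelled as before irradiation, and 3 arrays at each of 2, 4, 8, 12 and 24 h after it, 42 arrays in all and 21 per line. Both lines grew in the same medium, an RPMI medium with fetal bovine serum and L-glutamine. Arrays of a group carry the label biological replicate, and whether they came from separate cultures is not stated, so the p-values measure the spread between these arrays. The protocol also speaks of cells left unirradiated and kept for the same times, but no array is labelled as such after 0 h, and whether any of the 6 arrays at 0 h held cells kept for a later time is not stated. Time since irradiation and time in culture therefore cannot be told apart in any change below.

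As background, methionine is activated to S-adenosylmethionine, the methyl donor of the cell, and the homocysteine left after methyl transfer is either turned back into methionine or passed through cystathionine to cysteine. Cysteine, from this route or taken up as cystine, limits the making of glutathione, a tripeptide that is made by glutamate-cysteine ligase and glutathione synthetase. Glutathione reduces peroxides through the glutathione peroxidases and is itself regenerated by glutathione reductase, and tumour cells use it to withstand oxidants, drugs and radiation. Transcription of many of these genes is known to respond to the factor NRF2 (gene NFE2L2) through antioxidant response elements, and to ATF4 when amino acids run short. H460 is known to carry a KEAP1 mutation and intact p53, and H1299 to lack p53.

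Promoter sequence from RefSeq (GRCh38.p14) was searched for the core letters of both elements, TGACNNNGC for the antioxidant response element and TGATGNAA for the ATF4 composite element, on either strand, in windows of 250 bases before to 50 bases after each annotated start. The table held 14 windows of 8 of the genes and none of GSS or GSR. The antioxidant core was present in 3 of the 14 windows, 1 each of GCLM, GPX2 and CBS, and in 13.3% of the 35116 windows of all genes. The ATF4 core was present in 0 of the 14 and in 3.62% of all windows, and no window of the set held both. Shown here, 5′ to 3′ along the gene, are the 250 bases before the start of GCLM, which had the second largest difference between the lines, of GPX2, the other measured gene with a match, and of CTH, which had the largest change after irradiation. GCLM lies on the minus strand with its window at chr1:93909431-93909680, GPX2 on the minus strand with its window at chr14:64942746-64942995, and CTH on the plus strand with its window at chr1:70411018-70411267. Capitals mark the antioxidant core, which reads on the strand opposite to the gene in both cases.
GCLM: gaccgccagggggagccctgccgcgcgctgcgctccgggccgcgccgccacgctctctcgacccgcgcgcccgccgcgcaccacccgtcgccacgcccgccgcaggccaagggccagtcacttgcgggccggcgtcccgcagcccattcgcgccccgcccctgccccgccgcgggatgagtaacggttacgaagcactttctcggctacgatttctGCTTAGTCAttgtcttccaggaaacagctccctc
GPX2: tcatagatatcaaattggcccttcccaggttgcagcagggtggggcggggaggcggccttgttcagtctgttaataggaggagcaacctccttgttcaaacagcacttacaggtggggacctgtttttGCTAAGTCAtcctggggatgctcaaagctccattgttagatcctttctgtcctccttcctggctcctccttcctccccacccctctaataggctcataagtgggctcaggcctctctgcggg
CTH: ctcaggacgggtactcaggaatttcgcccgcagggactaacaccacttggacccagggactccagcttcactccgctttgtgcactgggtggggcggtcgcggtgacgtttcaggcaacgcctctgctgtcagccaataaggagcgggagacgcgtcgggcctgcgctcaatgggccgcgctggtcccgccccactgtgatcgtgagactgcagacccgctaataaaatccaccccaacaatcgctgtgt
The match in GCLM, GCTTAGTCA, runs from position -34 to -26 relative to the start, and that in GPX2, GCTAAGTCA, from position -122 to -114. The CTH window held neither core. A match describes the letters of the window and nothing more, and a core absent from these bases says nothing about the rest of the locus.

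Values are log2 levels as deposited, differences are on the log2 scale with the standard error of the model (±), and a gene is called at an adjusted p under 0.05 over all 18404 genes. The probes differ between genes, so levels are compared between arrays for 1 gene at a time. As a check of the treatment, CDKN1A (p21, a brake on the cell cycle) rose by 1.62 ± 0.13 at 4 h in H460 (adjusted p = 1.06e-08) and by 0.42 ± 0.07 at 24 h in H1299 (adjusted p = 0.000262), and MDM2, the p53 antagonist, rose by 1.12 ± 0.11 at 4 h in H460 (adjusted p = 3.23e-07) and by 0.39 ± 0.06 at 12 h in H1299 (adjusted p = 1.86e-05). Of 5 epithelial markers, KRT8 and KRT18 were high in both lines (0 h means of 12.18 and 12.18 in H460 and of 10.81 and 12.12 in H1299), while EPCAM and CDH1 were at 3.97 and 3.78 in H460 and at 3.67 and 3.71 in H1299, inside the range of the leukocyte markers. KRT19 was at 11.36 in H460 and at 5.23 in H1299. The spread of values within an array also differed between groups. The interquartile range, called array width below, averaged 2.84 in H460 at 2 h (SD 0.117, n = 3), against 3.34 in H460 at 0 h (SD 0.169, n = 6), and lay between 3.64 and 3.67 on average at 8, 12 and 24 h. The widest H460 array at 2 h (2.97) was narrower than the narrowest at 0 h (3.14). Width and time are thus confounded in H460, most of all at 2 h. A call lost with array width as a covariate does not show which of them a change follows. In H1299 the group means lay between 3.53 and 3.82, and H1299 0 h replicate 2 was the narrowest of its line at 3.24.

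At 0 h the lines differed in transcripts of glutathione synthesis and recycling, and glutathione itself was not measured. Glutathione reductase and both subunits of glutamate-cysteine ligase were higher in H460, and GPX4, GSS and AHCY were lower in H460. In all, 8 of the 9 genes were called at 0 h, 5 higher and 3 lower in H460. The background was high, since 55.1% of all genes were called (26.0% higher and 29.1% lower in H460), and the median difference was 0.39 over the 9 genes and 0.07 over all genes. In bulk samples such as these, fewer cells of a type and less RNA per cell cannot be told apart.

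**Figure D1:**
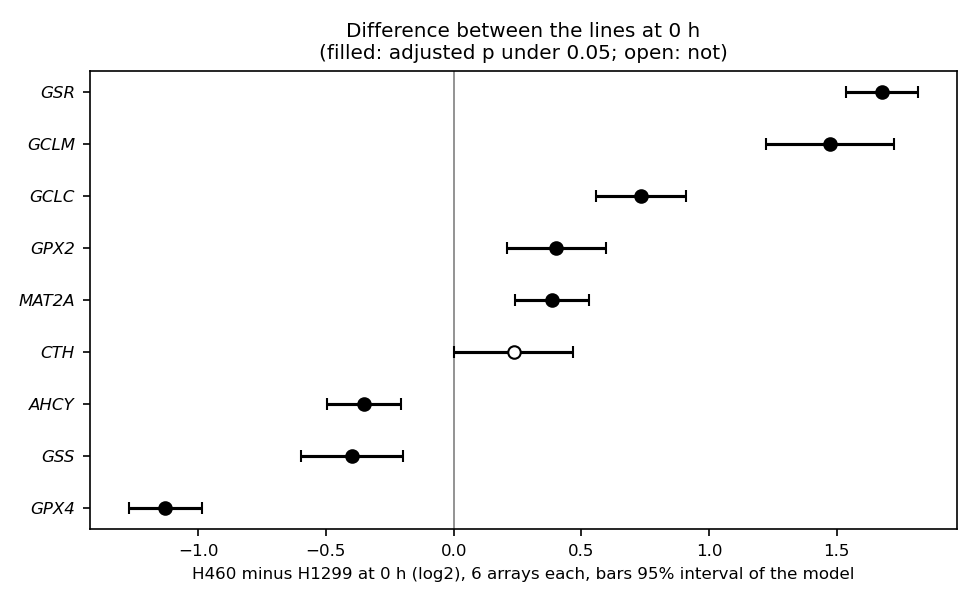
Difference in log2 level between H460 and H1299 at 0 h for each gene (6 arrays each), with points at the estimate and bars at the 95% interval of the model, not adjusted for the number of genes. GSR, GCLM and GCLC lie farthest to the right (1.68, 1.47 and 0.73), GPX4 lies farthest to the left (-1.13), and CTH is the gene whose difference was not called.

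GSR encodes glutathione reductase, which regenerates glutathione from its oxidised form with NADPH. Its level at 0 h was 11.64 at the lowest, 11.73 at the median and 11.83 at the highest in H460, against 9.95, 10.03 and 10.25 in H1299. No H460 array came within 1 log2 unit of any H1299 array at this or any later time. The difference was 1.68 ± 0.067, or 3.20-fold (adjusted p = 2.47e-14), and ranged from 1.60 to 1.75 over the other settings.

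GCLM is the modifier subunit of glutamate-cysteine ligase, the rate-limiting enzyme of glutathione synthesis, and GCLC is the catalytic subunit. GCLM (GRCh38.p14 chr1:93885199-93909430) stood at 8.76, 8.95 and 9.37 (lowest, median and highest) in H460 at 0 h, against 7.07, 7.63 and 7.70 in H1299. GCLC (chr6:53497341-53545101) stood at 8.94, 9.06 and 9.36 in H460, against 8.09, 8.39 and 8.47 in H1299. For both subunits the lines did not overlap. The differences were 1.47 ± 0.12 for GCLM, or 2.78-fold (adjusted p = 1.77e-09), and 0.73 ± 0.084 for GCLC, or 1.66-fold (adjusted p = 2.77e-07). The lowest H1299 value of each came from H1299 0 h replicate 2. Without that array the differences were 1.38 for GCLM and 0.68 for GCLC, and both calls held.

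GSS, glutathione synthetase, adds glycine in the last step of synthesis and ran the other way. Its 0 h levels were 8.74, 8.85 and 9.25 in H460, against 8.95, 9.38 and 9.42 in H1299. The lines overlapped through the highest H460 array and H1299 0 h replicate 2. The difference was -0.40 ± 0.095 (adjusted p = 0.00139). It was -0.18 with array width as a covariate (adjusted p = 0.0742) and -0.32 with only 0 h replicates 1 to 3 (adjusted p = 0.0823), and these were the settings that ended the call.

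Of the peroxidases, GPX4 reduces lipid peroxides in membranes and guards against ferroptosis, and GPX2 is the peroxidase of the gut epithelium and a known NRF2 target. GPX4 (chr19:1103994-1106779) was at 10.22, 10.28 and 10.49 in H460 at 0 h, against 11.39, 11.46 and 11.53 in H1299. The groups lay far apart, with a difference of -1.13 ± 0.068, so that the H1299 level was 2.19-fold that of H460 (adjusted p = 1.76e-11). GPX2 (chr14:64939158-64942745) was at 3.76, 3.87 and 4.15 in H460, against 3.38, 3.50 and 3.62 in H1299. Its values are in the range of the leukocyte and endothelial markers in these cells, and its difference of 0.40 ± 0.092 (adjusted p = 0.000953) was not called with only 0 h replicates 1 to 3 (0.30, adjusted p = 0.126).

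MAT2A makes S-adenosylmethionine, and AHCY hydrolyses S-adenosylhomocysteine to homocysteine. MAT2A (chr2:85539168-85545281) was at 11.37, 11.40 and 11.62 in H460 at 0 h, against 10.87, 11.10 and 11.13 in H1299, without overlap. Its difference was 0.39 ± 0.069 (adjusted p = 7.54e-05). AHCY (chr20:34231981-34311836) was at 9.88, 9.98 and 10.06 in H460, against 10.11, 10.37 and 10.45 in H1299, also without overlap, with a difference of -0.35 ± 0.07 (adjusted p = 0.000229). CTH, cystathionine gamma-lyase (chr1:70411268-70439851), releases cysteine from cystathionine and was not called at 0 h. Its levels were 5.89, 6.03 and 6.53 in H460, against 5.66, 5.86 and 6.01 in H1299, overlapping, with a difference of 0.24 (95% interval 0.00 to 0.47, adjusted p = 0.0804). It was called with array width as a covariate (0.47, adjusted p = 0.000384), after centring each array on its median (0.27, adjusted p = 0.0475) and without H460 0 h replicate 1 (0.28, adjusted p = 0.0466).

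After irradiation the gene of the set that moved most was CTH in H460. In H460, CTH had 6.17, 5.56 and 5.85 at 2 h, 6.17, 6.52 and 6.31 at 4 h, 7.09, 7.07 and 7.10 at 8 h, 7.29, 7.36 and 7.20 at 12 h, and 8.31, 8.59 and 8.38 at 24 h. From 8 h on, every array lay above all 6 arrays at 0 h, of which the highest was 6.53. The rise over 0 h was 0.99 ± 0.14 at 8 h (adjusted p = 3.89e-05), 1.19 ± 0.14 at 12 h (adjusted p = 1.05e-06) and 2.32 ± 0.14 at 24 h, or 5.01-fold (adjusted p = 3.66e-12). The changes of -0.24 at 2 h and 0.23 at 4 h were not called.

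In H1299, CTH had 5.45, 6.01 and 6.12 at 2 h, 5.79, 5.50 and 5.65 at 4 h, 5.63, 5.79 and 5.79 at 8 h, 5.68, 5.68 and 5.53 at 12 h, and 6.38, 6.46 and 6.27 at 24 h. At 24 h alone did all 3 arrays stand above every 0 h array of the line, by 0.51 ± 0.12 on average, or 1.42-fold (adjusted p = 0.00505). The H460 change exceeded the H1299 change by 1.11 ± 0.18 at 8 h (adjusted p = 7.7e-05), by 1.42 ± 0.18 at 12 h (adjusted p = 8.1e-07) and by 1.82 ± 0.18 at 24 h (adjusted p = 1.02e-09). Ordered by mean over the 12 groups, H460 at 24 h, 12 h and 8 h came first and none of the 3 overlapped the next, while from H1299 at 24 h downward each group overlapped its neighbour. Across the 21 arrays of H460 the level of CTH correlated with array width (r = 0.76, a description over arrays that share their time points), and in H1299 the correlation was 0.04. With array width as a covariate the H460 changes were 0.56 at 8 h (adjusted p = 0.049), 0.71 at 12 h (adjusted p = 0.00437) and 1.89 at 24 h (adjusted p = 2.14e-09), and each remained called under all 11 other settings. In H1299 the same covariate gave called falls of 0.29 at 4 h and 0.44 at 12 h (-0.29 and -0.44, adjusted p = 0.0464 and 0.0117), where the changes without it, -0.22 and -0.23, were not called, and a rise of 0.43 at 24 h (adjusted p = 0.00497). The excess of the H460 change at 4 h was then also called (0.54, adjusted p = 0.00727).

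**Figure D2:**
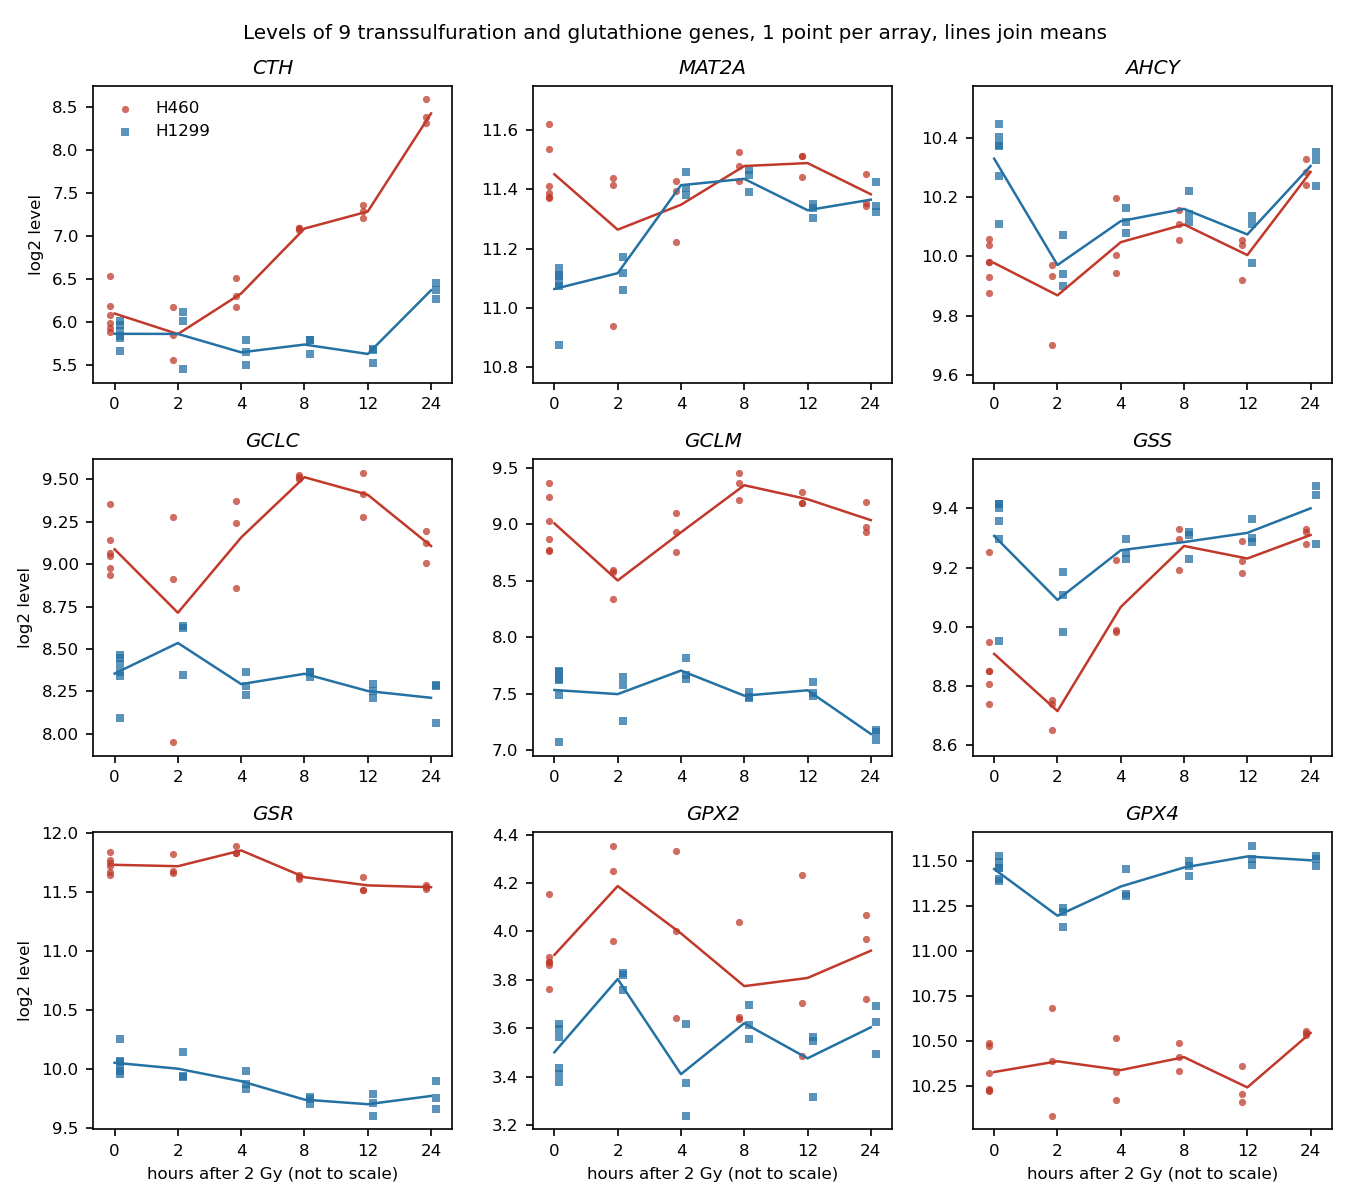
Deposited log2 level of the 9 measured genes by time after 2 Gy, 1 point per array (6 at 0 h and 3 at each later time per line), with lines through the group means, the times evenly spaced and a separate vertical scale for each gene. CTH climbs in H460 to 8.31 to 8.59 at 24 h and stays at or below 6.46 in H1299, while GSR, GCLM and GPX4 keep the lines apart at every time.

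The methionine cycle genes moved less. In H460, where the 0 h arrays ran from 11.37 to 11.62, no change of MAT2A was called, and the 24 h arrays were 11.34, 11.45 and 11.35. Its 24 h change there was called after quantile normalization (-0.25, adjusted p = 0.0259). Its 2 h change was called with all 42 arrays in the fit (-0.19, adjusted p = 0.042) and without H460 2 h replicate 1 (-0.27, adjusted p = 0.034). MAT2A in H1299 had 11.46, 11.38 and 11.40 at 4 h, 11.47, 11.39 and 11.45 at 8 h, 11.35, 11.34 and 11.30 at 12 h, and 11.34, 11.32 and 11.43 at 24 h. Each of these arrays lay above the highest 0 h array of the line, 11.13. The rise was 0.35 ± 0.056 at 4 h (adjusted p = 9.37e-05), 0.37 ± 0.056 at 8 h (adjusted p = 3.25e-05), 0.27 ± 0.056 at 12 h (adjusted p = 0.000864) and 0.30 ± 0.056 at 24 h (adjusted p = 0.000686), and all 4 remained called under the 11 other settings. The level of MAT2A correlated with array width in H1299 (r = 0.74), and with width as a covariate the 12 h rise was 0.15 (adjusted p = 0.0348). The H460 change was smaller than the H1299 change by 0.45 at 4 h, 0.34 at 8 h and 0.37 at 24 h (differences of -0.45 ± 0.11, -0.34 ± 0.11 and -0.37 ± 0.11, adjusted p = 0.00624, 0.0338 and 0.0184). With only 0 h replicates 4 to 6 none of the 3 differences was called (adjusted p between 0.0567 and 0.162), the 8 h difference was not called when any 1 of 6 arrays was left out (adjusted p up to 0.094), and the 24 h difference was not called without H460 24 h replicate 1 or H1299 24 h replicate 3 (adjusted p up to 0.059).

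In H460 the 24 h arrays of AHCY, 10.24, 10.33 and 10.28, stood above all 0 h arrays, and the rise of 0.31 ± 0.082 was called (adjusted p = 0.00704). That rise was not called after quantile normalization (0.14, adjusted p = 0.251), with array width as a covariate (0.26, adjusted p = 0.156) or without H460 24 h replicate 2 (0.28, adjusted p = 0.0504). AHCY in H1299 had 9.90, 10.07 and 9.94 at 2 h, below its lowest 0 h array of 10.11, and fell by 0.36 at 2 h (-0.36 ± 0.066, adjusted p = 0.000864). It also fell by 0.21 at 4 h (adjusted p = 0.0288) and by 0.26 at 12 h (adjusted p = 0.00492), with arrays that overlapped those at 0 h. The 4 h call ended under 4 of the 11 other settings and when any 1 of 7 arrays was left out (adjusted p between 0.0504 and 0.13). The 12 h call ended without H1299 12 h replicate 2 (-0.21, adjusted p = 0.0595). At 24 h the H1299 arrays were 10.35, 10.33 and 10.24, inside the 0 h range. The H460 change exceeded the H1299 change by 0.30 ± 0.10 at 8 h (adjusted p = 0.0493) and by 0.33 ± 0.10 at 24 h (adjusted p = 0.0235). The 8 h call ended under 7 of the 10 other settings and when any 1 of 32 arrays was left out (adjusted p up to 0.132). The 24 h call ended without H460 24 h replicate 2 or H1299 24 h replicate 3 (adjusted p up to 0.0753). It also ended under 4 of the 10 other settings, among them array width as a covariate (0.27, adjusted p = 0.0602). The 8 h change in H1299, -0.17, was not called (adjusted p = 0.0618) and was called without H1299 0 h replicate 2 (-0.21, adjusted p = 0.00519) and with width as a covariate (-0.26, adjusted p = 0.0114).

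Of the glutamate-cysteine ligase subunits, GCLM fell at 2 h in H460 and no other change of either was called in that line. GCLM in H460 had 8.59, 8.57 and 8.34 at 2 h, below its lowest 0 h array of 8.76, and 9.46, 9.22 and 9.36 at 8 h, and it fell by 0.51 at 2 h (-0.51 ± 0.12, adjusted p = 0.00232). GCLC in H460 had 9.28, 8.91 and 7.95 at 2 h and 9.53, 9.51 and 9.50 at 8 h, where all 3 stood above the 0 h arrays, with changes of -0.37 and 0.43 that were not called (adjusted p = 0.0831 and 0.0849). The 2 h value rests on H460 2 h replicate 3, without which it was 0.01 (adjusted p = 0.966), and with array width as a covariate it was 0.17 (adjusted p = 0.917). The 2 h arrays of H460 are the narrow ones, and GCLM followed array width in H460 with r = 0.85. With array width as a covariate the 2 h change of GCLM was -0.01 (adjusted p = 0.99), and after quantile normalization it was -0.27 (adjusted p = 0.0535). The 8 h changes, unaltered in size, were called when the narrow arrays stayed out of the fit, at 0.34 for GCLM (adjusted p = 0.0393) and 0.43 for GCLC (adjusted p = 0.00519).

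In H1299, GCLM had 7.09, 7.18 and 7.16 at 24 h, above H1299 0 h replicate 2 at 7.07 and below every other 0 h array, and fell by 0.39 (-0.39 ± 0.11, adjusted p = 0.0157). This call ended with only 0 h replicates 1 to 3 (-0.28, adjusted p = 0.17) and without H1299 24 h replicate 1 or replicate 3 (adjusted p between 0.0541 and 0.0807). GCLM also fell by 0.33 at 8 h and by 0.29 at 12 h with array width as a covariate (-0.33 and -0.29, adjusted p = 0.00659 and 0.0145). GCLC in H1299 had no called change, and its 24 h arrays were 8.06, 8.28 and 8.29. It had called changes of 0.22 at 2 h, -0.29 at 12 h and -0.21 at 24 h with array width as a covariate (adjusted p = 0.0065, 0.0047 and 0.0139), and after quantile normalization the same 3 times were called, at 0.20, -0.20 and -0.20 (adjusted p between 0.0172 and 0.0304). At 2 h the H460 change was below the H1299 change by 0.56 for GCLC (-0.56 ± 0.20, adjusted p = 0.0344) and by 0.47 for GCLM (-0.47 ± 0.17, adjusted p = 0.0303), where the narrow H460 arrays enter again and array width as a covariate brings the differences to -0.14 and 0.03 (adjusted p = 0.768 and 0.948). Both calls also ended without H460 0 h replicate 6, H460 2 h replicate 3, H1299 0 h replicate 2 or H1299 2 h replicate 2 or 3, with values from -0.51 to -0.17 for GCLC and from -0.43 to -0.38 for GCLM.

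GSS rose in H460 at 8, 12 and 24 h. Its arrays were 9.19, 9.30 and 9.33 at 8 h, 9.22, 9.29 and 9.18 at 12 h, and 9.33, 9.28 and 9.32 at 24 h, against a 0 h range of 8.74 to 9.25. All 3 arrays stood above that range at 24 h, and 2 of 3 at 8 h. The rise was 0.36 ± 0.097 at 8 h (adjusted p = 0.0136), 0.32 ± 0.097 at 12 h (adjusted p = 0.0135) and 0.40 ± 0.097 at 24 h (adjusted p = 0.00321). GSS followed array width more closely than any other gene of the set in H460 (r = 0.89), and with width as a covariate the changes were 0.15, 0.09 and 0.18 and none was called (adjusted p between 0.405 and 0.788). The 8 h call also ended without H460 8 h replicate 2 or 3 and the 12 h call without H460 12 h replicate 2 (adjusted p between 0.063 and 0.07). After quantile normalization both were not called (0.21 and 0.17, adjusted p = 0.0894 and 0.144). The same held with only 0 h replicates 4 to 6 (0.34 and 0.30, adjusted p = 0.0844 and 0.0707). In H1299 no change of GSS was called, and the arrays after 0 h ran from 8.98 to 9.48. The 2 h change of -0.22 (adjusted p = 0.0737) was called without H1299 0 h replicate 2 (-0.29, adjusted p = 0.000703), with only 0 h replicates 4 to 6 (-0.32, adjusted p = 0.00143), after quantile normalization (-0.21, adjusted p = 0.019) and with array width as a covariate (-0.18, adjusted p = 0.0381). The changes differed between the lines at 8 h, by 0.38 ± 0.12 (adjusted p = 0.0391), a call that ended when any 1 of 13 arrays was left out (adjusted p up to 0.108).

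GSR fell in both lines. In H460 GSR fell by 0.19 at 24 h (-0.19 ± 0.069, adjusted p = 0.0415), with arrays of 11.53, 11.55 and 11.54 below the 0 h range of 11.64 to 11.83. Leaving out any 1 of 12 arrays ended that call (adjusted p between 0.0516 and 0.118), as did array width as a covariate (-0.19, adjusted p = 0.252). In H1299 its arrays were 9.75, 9.76 and 9.71 at 8 h, 9.71, 9.79 and 9.60 at 12 h, and 9.75, 9.90 and 9.66 at 24 h, all below the lowest 0 h array of 9.95. The change was -0.31 ± 0.07 at 8 h (adjusted p = 0.00178), -0.35 ± 0.07 at 12 h (adjusted p = 0.000457) and -0.28 ± 0.07 at 24 h (adjusted p = 0.00825). The 12 h call remained under the 11 other settings, with values from -0.45 to -0.23, while the 8 h call ended with array width as a covariate (-0.20, adjusted p = 0.0589) and the 24 h call without H1299 24 h replicate 3 (-0.23, adjusted p = 0.0873). No difference between the lines in the change of GSR was called at any time, and at 4 h a difference of 0.28 (adjusted p = 0.0557) was called with array width as a covariate (0.26, adjusted p = 0.043).

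The peroxidases of the set had 1 called change each, both at 2 h in H1299. In H460 the GPX4 arrays at 24 h were 10.53, 10.55 and 10.56, just above the highest 0 h array of 10.49, and the change of 0.22 was not called (adjusted p = 0.122). That change was called with all 42 arrays in the fit (adjusted p = 0.0368) and without the 4 narrow arrays (adjusted p = 0.0458). GPX4 in H1299 had 11.24, 11.22 and 11.13 at 2 h, below its lowest 0 h array of 11.39, and fell by 0.26 (-0.26 ± 0.053, adjusted p = 0.00188), a call that ended with all 42 arrays in the fit (adjusted p = 0.0506). GPX2 in H1299 had 3.83, 3.76 and 3.82 at 2 h, above its highest 0 h array of 3.62, and rose by 0.30 ± 0.10 (adjusted p = 0.044), a call that ended under 6 of the 10 other settings it entered and when any 1 of 12 arrays was left out. The change of GPX4 at 2 h was higher in H460 than in H1299 by 0.32 ± 0.12 (adjusted p = 0.0366), and the call ended when any 1 of 6 arrays was left out (values from 0.17 to 0.33, adjusted p up to 0.285).

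**Figure D3:**
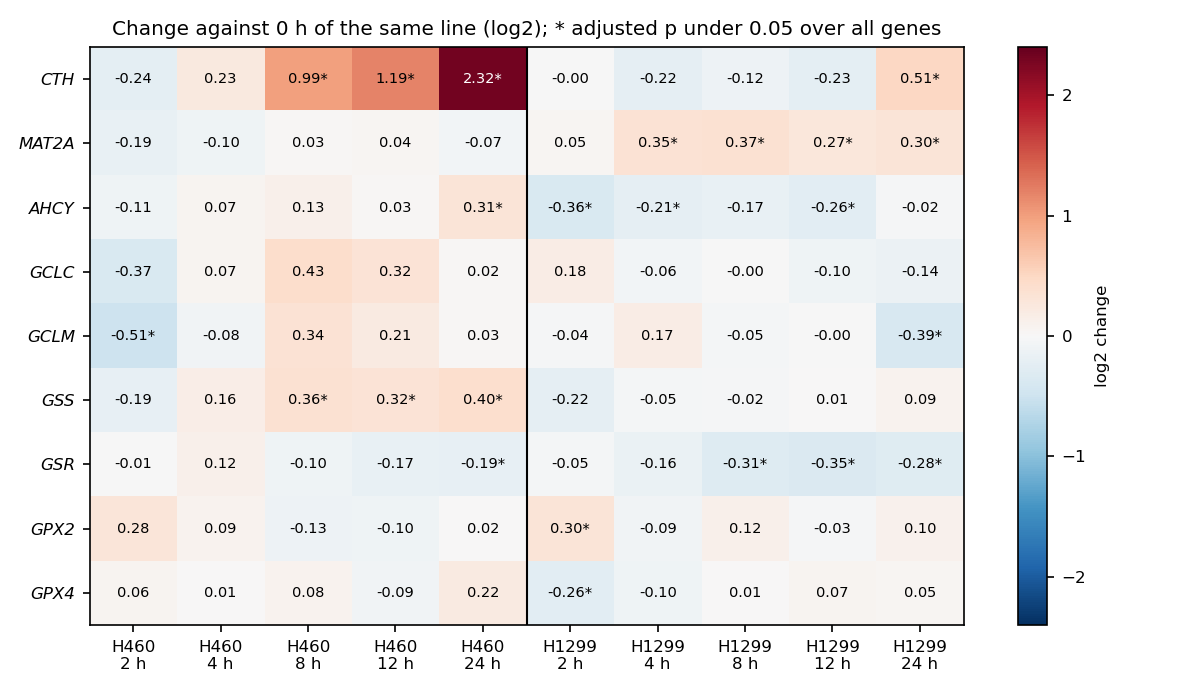
Mean log2 change against 0 h of the same line for each gene and time point, H460 on the left and H1299 on the right, with an asterisk for an adjusted p under 0.05 over all genes. CTH in H460 at 24 h stands apart at 2.32, and the other called changes lie between -0.51 and 1.19.

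Counted over the set, 23 of 90 changes against 0 h and 12 of 45 differences between the lines were called. In H460 the genes called were 1 of 9 at 2 h, 0 at 4 h, 2 at 8 h, 2 at 12 h and 4 at 24 h, beside 40.4%, 2.92%, 16.9%, 33.5% and 28.7% of all genes at these times. At 24 h in H460 3 rose and 1 fell, beside 16.2% and 12.4% of all genes. In H1299 they were 3, 2, 2, 3 and 4 of 9, beside 13.8%, 15.9%, 24.6%, 29.7% and 11.7%. At 24 h in H1299 2 rose and 2 fell, beside 8.53% and 3.21%. The lines differed in their change for 3, 1, 4, 1 and 3 of 9 genes at 2, 4, 8, 12 and 24 h, beside 28.6%, 8.54%, 10.1%, 8.68% and 12.4% of all genes. With so few genes, 1 call more or less moves a share by over 10 percentage points. When each course was fitted as a quadratic in hours, 4 of 9 were called in H460 (CTH, GSS and AHCY with their largest change upward, GSR downward, background 41.9%) and 5 of 9 in H1299 (CTH and MAT2A upward, GSR, GCLM and AHCY downward, background 36.5%). The largest change of the CTH course in H1299 was downward, -0.44 at 12 h, with array width as a covariate. The courses differed between the lines for 1 of 9, CTH (adjusted p = 4.61e-10, background 16.7%).

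The genes most like CTH were sought among 7197 genes whose largest change against 0 h was at least 0.5 in size, called or not. The measure was the Pearson correlation over the 10 mean changes of both lines. These were SCPEP1 (r = 0.99), LXN (r = 0.98) and GSTT1 (r = 0.98), which at 24 h in H460 rose by 0.87, 2.14 and 0.83. For GCLM the same search gave ZNF583 (r = 0.97), NDUFAF6 (r = 0.95) and NCOA1 (r = 0.93). Their largest changes were in H460, -0.60 at 2 h, 0.63 at 8 h and -0.52 at 2 h. GCLM entered the search through its own 2 h change in H460, where the arrays were narrow. The points share their 0 h arrays and the best of many genes are high by selection, so these are descriptions without a test.

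Around the set, 63 other genes of the pathway were measured. At 0 h 30 of them were higher in H460 and 14 lower (47.6% and 22.2%, beside 26.0% and 29.1% of all genes), with a median difference of 0.22. At 24 h 21 rose and 3 fell in H460 (33.3% and 4.76%, beside 16.2% and 12.4% of all genes), with a median change of 0.18 against -0.05 over all genes, and 8 rose and 0 fell in H1299 (12.7% rose, beside 8.53% up and 3.21% down over all genes), with a median change of 0.02 against 0.00. With array width as a covariate the H460 count at 24 h was 7 in place of 24. The share of all genes called with that covariate is not given here. The lower count is therefore not a result about the pathway.

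The transcripts for cystine uptake differed between the lines at 0 h, and uptake itself was not measured. SLC7A11, the cystine-glutamate exchanger that feeds glutathione synthesis, was at 11.15, 11.44 and 11.74 (lowest, median and highest) in H460 at 0 h, against 6.35, 6.81 and 6.92 in H1299. The difference was 4.71 ± 0.11, or 26.1-fold (adjusted p = 4.33e-18), and its partner subunit SLC3A2 was higher in H460 by 0.77 ± 0.15 (adjusted p = 0.000206). At 24 h SLC7A11 lay between 11.47 and 11.52 in H460, inside the 0 h range, and between 7.82 and 8.26 in H1299, above all 0 h arrays of that line, where the rise was 1.30 ± 0.12 (adjusted p = 3.64e-08). Both SLC7A11 and SLC3A2 fell at 2 h in H460 (-0.47 ± 0.12 and -0.74 ± 0.14), when 40.4% of all genes were called. Neither fall was called with array width as a covariate (-0.30 and -0.35, adjusted p = 0.743 and 0.739). Of the 10 other methionine cycle genes measured, 4 were higher and 3 lower in H460 at 0 h (26.0% and 29.1% of all genes), led by AHCYL1 (0.97 ± 0.072), MTR, methionine synthase (0.89 ± 0.096), and its reductase MTRR (0.63 ± 0.07), and 2 rose at 24 h in H460, near the 16.2% of all genes, AHCYL2 by 0.70 ± 0.12 and AHCYL1 by 0.55 ± 0.10.

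Genes that use cysteine or sulfide showed 3 higher and 4 lower of 8 in H460 at 0 h, beside 26.0% and 29.1% of all genes. CDO1, which oxidises cysteine, was at 4.16, 4.68 and 5.00 in H460, against 6.76, 6.94 and 7.29 in H1299, a difference of -2.32 ± 0.14 (adjusted p = 1.79e-11). The sulfur dioxygenase ETHE1 was lower in H460 by 1.29 on the log2 scale (-1.29 ± 0.087), and the thiosulfate sulfurtransferase TST was higher by 1.08 ± 0.13. After irradiation SUOX, sulfite oxidase, rose by 0.89 ± 0.14 at 12 h in H460 and by 0.52 ± 0.12 at 4 h in H1299 (adjusted p = 0.00307).

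Among the genes that break glutathione down, CHAC1, which cleaves it inside the cell, was lower in H460 at 0 h (-0.84 ± 0.10, adjusted p = 7.89e-07) and rose in both lines at 24 h. The rise was 0.78 ± 0.15 in H460 (adjusted p = 0.000286) and 1.48 ± 0.089 in H1299 (adjusted p = 3.15e-11). ANPEP, an aminopeptidase of the cell surface, was lower in H460 at 0 h (the H1299 level was 3.99-fold that of H460) and rose by 0.92 ± 0.10 at 24 h in H1299. Of the 9 genes of this group, 2 rose and 1 fell at 24 h in H460, near the 16.2% and 12.4% of all genes, and 3 rose and 0 fell in H1299, beside 8.53% and 3.21%. At 12 h in H460, 4 of the 9 fell and 0 rose, beside 33.5% of all genes called. The largest called change of the group in H460 was the fall of GGT6 at 12 h (-0.90 ± 0.17, adjusted p = 0.000423). That call ended with array width as a covariate (-0.49, adjusted p = 0.252).

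Of 6 other peroxidases 3 were higher and 1 was lower in H460 at 0 h, beside 26.0% and 29.1% of all genes. GPX1, the cytosolic peroxidase, was at 9.15, 9.30 and 9.86 in H460 at 0 h, against 5.56, 5.73 and 5.95 in H1299, a difference of 3.71 ± 0.12, or 13.1-fold (adjusted p = 1.29e-15), and GPX3 was higher by 2.39 ± 0.11. Of 19 glutathione S-transferases, which join glutathione to electrophiles, 13 were higher and 1 lower in H460 at 0 h (26.0% and 29.1% of all genes), led by GSTM1 (4.36 ± 0.12, or 20.5-fold), MGST2 (3.04 ± 0.16) and GSTM3 (2.70 ± 0.095). The GSTM genes are close copies of each other, and probes may not tell them apart. At 24 h 11 of the 19 rose and 0 fell in H460, beside 16.2% and 12.4% of all genes, with GSTA4 at 0.96 ± 0.15, GSTM2 at 0.89 ± 0.12 and MGST2 at 0.88 ± 0.18, and 2 rose and 0 fell in H1299, beside 8.53% and 3.21%. With array width as a covariate 4 were called in H460 at 24 h, and the share of all genes with that covariate is again not given. The largest called changes in H1299 were falls, of GSTO1 and MGST3 at 4 h (-0.62 ± 0.096 and -0.48 ± 0.087) and of GSTP1 at 2 h (-0.40 ± 0.098). There 3 of the 19 fell and 0 rose at 2 h, and 2 fell and 0 rose at 4 h, beside 13.8% and 15.9% of all genes called. The fall of GSTP1 was not called with only 0 h replicates 1 to 3 (-0.34, adjusted p = 0.0781).

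GLRX, the glutaredoxin that removes glutathione from protein thiols, had the largest change at 24 h in H460 among the 63. Its 24 h arrays ran from 11.65 to 11.79, against 9.73 to 10.46 at 0 h, a rise of 1.77 ± 0.13, or 3.41-fold (adjusted p = 2.01e-10). In H1299 it lay between 7.02 and 7.28 at 24 h, inside the 0 h range of 7.01 to 7.55. Of the regulators, ATF4 rose by 0.35 ± 0.083 at 24 h in H460 (adjusted p = 0.00262) and fell by 0.44 at 4 h in H1299 (-0.44 ± 0.066, adjusted p = 4.88e-05). KEAP1, which holds NRF2 in check, fell at 12 h in both lines, by 0.40 in H460 (-0.40 ± 0.099, adjusted p = 0.00397) and by 0.26 in H1299 (-0.26 ± 0.077, adjusted p = 0.0139). With only 0 h replicates 1 to 3 neither was called (-0.28 and -0.20, adjusted p = 0.0561 and 0.0582), and the H1299 fall was not called without H1299 12 h replicate 2 or 3 (adjusted p up to 0.0853). With array width as a covariate the H460 changes of ATF4 (0.24), KEAP1 (-0.48), MGST2 (0.72) and AHCYL1 (0.41) were not called (adjusted p between 0.0566 and 0.198). NFE2L2 was higher in H460 at 0 h by 0.22 ± 0.088 (adjusted p = 0.0377), a call that ended under 5 of the 10 other settings.

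**Figure D4:**
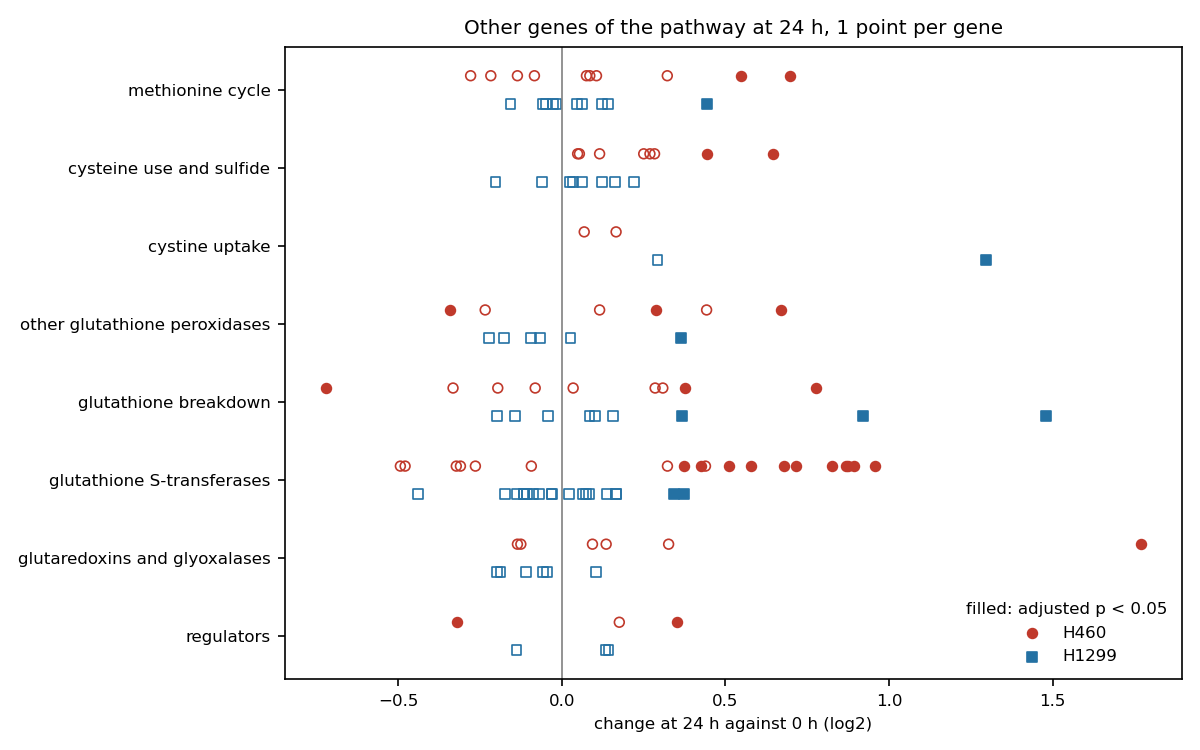
Log2 change at 24 h against 0 h for the 63 other genes of the pathway, 1 point per gene, by group, with H460 circles above H1299 squares and filled points for an adjusted p under 0.05 over all genes. The S-transferases of H460 hold 11 filled points to the right of 0, GLRX lies farthest right at 1.77 in H460, and CHAC1 and SLC7A11 lie farthest right in H1299 at 1.48 and 1.30.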

How the data were processed

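Total RNA of each sample was labelled with biotin and hybridised to 1 Affymetrix array, from 100 ng, per the labels' protocols. The deposited values are log2 levels per probe set, normalized by the authors with a method not given in the sources used here, and they came without detection calls. The table of 32321 rows was joined to the platform's gene symbols: 19158 rows carried 1 symbol and 1388 several, and the probe table did not list 11775. Of several rows per gene the one with the highest mean over the 42 arrays was kept (754 left out), which gave 18404 genes. Precision is limited by the number of arrays.

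Tests used limma 3.58.1 in R 4.3.3 (lmFit, eBayes with trend), two-sided, on the log2 values of all genes, with Benjamini-Hochberg adjustment over all genes of a comparison and a threshold of 0.05. Each line's 21 arrays gave the time point contrasts and, as a quadratic in hours, the time course. All 42 arrays gave the differences between the lines, and the 12 at 0 h gave the baseline. The fits were tested on simulated data. Other settings were quantile normalization, median centring, array width as a covariate, dim genes left out (the lowest 33.3%), all rows, robust eBayes, the replicate number as a block, only 0 h replicates 1 to 3 or 4 to 6, all 42 arrays, 1 mean per time point, each array left out in turn and, added after the data were seen, leaving out the 4 narrow arrays (the 3 of H460 at 2 h, and H1299 0 h replicate 2).

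The genes, the pathway lists and the marker lists were chosen with earlier results of these data known. The text names all 10 genes of the set, CDKN1A and MDM2. From each list, up to 3 genes with the largest called change per line and up to 3 at 0 h were picked, and the text names only a part of these. The likeness search named the 3 genes of highest correlation for each gene of the set with a called change of at least 0.5. Marker lists held 5 epithelial, 6 fibroblast, 5 leukocyte and 3 endothelial genes that were measured. Their mean level per array ran from 8.57 to 8.83 in H460 and from 6.84 to 7.28 in H1299 for epithelial genes, from 4.90 to 5.30 and from 4.12 to 4.60 for fibroblast genes, from 3.52 to 4.05 and from 3.13 to 3.70 for leukocyte genes, and from 3.44 to 4.44 and from 3.31 to 4.05 for endothelial genes, in the same order of lines. Their part in the results was not tested.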

Additional observations from a re-analysis of the deposited data

Results flagged for a closer look

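Among the 6 arrays of a line at 0 h, 1 array stood apart for 5 genes by Dixon's test, out of 18 groups tested, where chance alone gives about 1 in 20. H460 0 h replicate 5 was the highest for GPX2 at 4.15, with the others between 3.76 and 3.89. H1299 0 h replicate 2 was the lowest for MAT2A at 10.87 (others 11.07 to 11.13), for GCLC at 8.09 (others 8.34 to 8.47), for GCLM at 7.07 (others 7.49 to 7.70) and for GSS at 8.95 (others 9.30 to 9.42). That array was also the narrowest of its line, with an interquartile range of 3.24, and the part of its width in these values was not tested. Without it, the 0 h differences of all 4 genes remained called. The differences in change of GCLC and GCLM at 2 h were then not called, and 7 others were called, those of AHCY at 2, 4 and 12 h (0.29, 0.33 and 0.33), GCLM at 8 and 24 h (0.48 and 0.51) and GSS at 12 and 24 h (0.38 and 0.38).

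The change against 0 h differed between the lines, by the test of the difference itself, in 12 cases. For CTH the H460 change exceeded the H1299 change by 1.11 at 8 h, 1.42 at 12 h and 1.82 at 24 h. For MAT2A the differences were -0.45 at 4 h, -0.34 at 8 h and -0.37 at 24 h. For AHCY they were 0.30 at 8 h and 0.33 at 24 h, and for GSS the difference was 0.38 at 8 h. At 2 h, where the H460 arrays were narrow, the differences were -0.56 for GCLC, -0.47 for GCLM and 0.32 for GPX4.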

How the results depend on the processing

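The rise of CTH in H460 at 8, 12 and 24 h, its excess over H1299 at these times, its rise in H1299 at 24 h, the rise of MAT2A in H1299 from 4 h on and the 0 h differences of GSR, GCLM, GCLC, GPX4, MAT2A and AHCY kept their direction and their call under every other setting. With array width as a covariate, 1 gene of the set had a called course in H460 (CTH), against 4 without it, and the difference of GCLM at 2 h changed sign to 0.025 (adjusted p = 0.948). The courses differed between the lines for 1 gene, and for 2 after quantile normalization, after median centring, with array width as a covariate, with dim genes left out or with only 0 h replicates 4 to 6, for 5 without the 4 narrow arrays and for 7 with 1 mean per time point. Shares of all genes called are given here for the main fit only. Counts under other settings therefore do not show whether the set moved apart from all genes. Of the 12 called differences in change, 7 remained with all rows of the table, 7 with the replicate number as a block, 6 with only 0 h replicates 1 to 3 and 5 with only 0 h replicates 4 to 6, where GCLM at 24 h was called in addition (0.54, adjusted p = 0.0325), 6 in all. The block ended no call of CTH and ended that of KEAP1 at 12 h in H460 (-0.28, adjusted p = 0.0684). Replicate numbers 4 to 6 occur only at 0 h, so the block gives those arrays no part in a change. Its changes therefore equal in size those with only 0 h replicates 1 to 3, as for KEAP1 (-0.28 in both). Among arrays after 0 h, same-numbered arrays did not deviate together on average (mean r between -0.03 and 0.03 per number). Single pairs ran from -0.23 to 0.20. Whether the numbers pair arrays at 0 h with later ones was not tested. With each array left out in turn, called courses numbered 2 to 6 in H460 (6 without H460 0 h replicate 6, 2 without H460 24 h replicate 2 or 3) and 4 to 6 in H1299, courses that differed 1 to 4 (4 without H460 0 h replicate 6 or H1299 2 h replicate 1, 3 without H460 2 h replicate 3 or H1299 0 h replicate 2, 2 without H460 0 h replicate 1), called 0 h differences 8 to 9, called changes 21 to 29 and called differences in change 8 to 17 (8 without H1299 2 h replicate 3). Over the settings other than these, 1635 values for the genes of the set kept their side of the threshold, 72 lost a call and 82 gained one. In 1 more case, the GCLM difference at 2 h, a called value lost its call and changed sign. Sign changes of values not called, and of courses, were not counted. For CTH at 2 h in H460, never called under these settings, values ran from -0.32 to 0.49. The causes were not tested. The number of arrays at each later time, 3, limits what small changes can be told from 0.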
